A study of Homo sapiens with 4 samples.

Results

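The genes described here are 8 receptor tyrosine kinases, MET, MST1R, AXL, INSR, IGF1R, FGFR1, DDR1 and EPHA2, and the insulin receptor substrates IRS1 and IRS2. These 10 genes were chosen by name among the 33886 gene symbols to which the deposited transcripts could be assigned, by a list of names drawn up with earlier results of these data known. A receptor tyrosine kinase spans the cell membrane, binds a ligand outside the cell and then phosphorylates itself and its partners inside it. The insulin receptor INSR and its relative IGF1R hand most of their signal to the docking proteins IRS1 and IRS2, which recruit PI3-kinase and through it activate AKT, and active AKT keeps the FoxO transcription factors out of the nucleus. MET, the receptor of hepatocyte growth factor, is expressed along the renal tubule and is activated by inherited mutations in one form of papillary renal cancer.

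Polyadenylated RNA was sequenced from HK-2 cells, a human line immortalised from renal proximal tubule, which carried a Tet-On construct for HA-tagged PRCC-TFE3, a fusion protein of renal cancer made from PRCC and the transcription factor TFE3. Every culture carried the construct, and 2 libraries came from cells given 0.2 microg/ml doxycycline for 24 h, Doxy(+), and 2 from cells left without it, Doxy(-). The comparison asks how these receptors and substrates respond when the fusion is switched on. Cultures without the construct were not analysed here, and so effects of doxycycline and of PRCC-TFE3 cannot be told apart, and whether the libraries of a group came from separate cultures or clones is not given in the labels.

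Estimated counts on named genes came to between 12654233 and 15012743 per library, and 13542 genes had enough counts to be tested. TFE3, on whose transcripts reads of the fusion can fall, stood at 66.9 and 69 CPM (counts scaled to a library total of 1000000) in Doxy(-) against 367 and 322 CPM in Doxy(+), a log2 difference of 2.34 by edgeR (SE 0.0719, adjusted p 4.37e-05). Of 15 proximal tubule and renal epithelial markers, 6 exceeded 1 CPM in every library, namely PAX8, KRT8, KRT18, EPCAM, GGT1 and SLC5A2. GGT1 had 68.7 and 69.4 CPM in Doxy(-) and 78 and 86.1 in Doxy(+), and SLC5A2 had 3.58 and 3.67, then 4.07 and 2.93. In contrast, PAX2, HNF4A, LRP2, AQP1 and SLC22A6, which mark mature proximal tubule or its precursors, were at 0 or below 0.1 CPM. Of 14 markers of other cell types, 3 exceeded 1 CPM in every library. These were CD68 (144 and 149 CPM in Doxy(-), 190 and 189 in Doxy(+)), LUM (160 and 174, then 185 and 184) and DCN (3.29 and 1.3, then 2.56 and 2.13). The summed level over the 14 markers came to 308 and 327 CPM in Doxy(-) against 381 and 379 CPM in Doxy(+), with CD3E, MS4A1, CDH5, COL3A1 and AQP2 among those at 0. Their part in the results was not tested.

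TFE3 belongs to the MiT/TFE family, whose members bind the E-box CACGTG and the related letters CATGTG, the core of the M-box. RefSeq promoter windows on GRCh38.p14, running from 250 bases before a start site to 50 bases after it, were at hand for 9 of the 10 genes, in 17 windows. The window of MET and the window of IRS1 held CACGTG, and the window of IRS2 and the downstream of the AXL windows held CATGTG on the opposite strand, where it reads CACATG. Among all 35116 windows of this length, 7.26% held CACGTG and 11.1% held CATGTG on either strand. These 4 windows are shown because they are the ones that hold a motif. Each is given 5′ to 3′ on the strand of its gene, with the motif in capitals.
MET, chr7:116671946-116672245, plus strand: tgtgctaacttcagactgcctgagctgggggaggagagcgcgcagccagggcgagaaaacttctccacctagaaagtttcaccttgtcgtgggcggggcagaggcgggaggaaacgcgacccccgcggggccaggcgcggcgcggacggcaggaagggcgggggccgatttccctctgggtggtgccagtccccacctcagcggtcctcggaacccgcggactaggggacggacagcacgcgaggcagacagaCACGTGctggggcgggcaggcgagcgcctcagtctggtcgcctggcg
IRS1, chr2:226799771-226800070, minus strand: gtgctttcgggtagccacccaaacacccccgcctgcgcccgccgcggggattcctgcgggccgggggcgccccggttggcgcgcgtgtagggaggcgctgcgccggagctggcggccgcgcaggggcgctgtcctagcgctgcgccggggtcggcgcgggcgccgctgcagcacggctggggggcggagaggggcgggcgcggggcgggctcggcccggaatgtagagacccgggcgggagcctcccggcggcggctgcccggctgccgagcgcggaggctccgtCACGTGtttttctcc
IRS2, chr13:109786534-109786833, minus strand: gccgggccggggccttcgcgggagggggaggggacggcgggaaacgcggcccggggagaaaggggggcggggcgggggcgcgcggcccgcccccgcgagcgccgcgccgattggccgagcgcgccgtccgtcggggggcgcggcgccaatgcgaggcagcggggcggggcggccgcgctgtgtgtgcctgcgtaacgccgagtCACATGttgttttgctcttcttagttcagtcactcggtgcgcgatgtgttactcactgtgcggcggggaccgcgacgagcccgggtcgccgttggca
AXL, chr19:41226505-41226804, plus strand: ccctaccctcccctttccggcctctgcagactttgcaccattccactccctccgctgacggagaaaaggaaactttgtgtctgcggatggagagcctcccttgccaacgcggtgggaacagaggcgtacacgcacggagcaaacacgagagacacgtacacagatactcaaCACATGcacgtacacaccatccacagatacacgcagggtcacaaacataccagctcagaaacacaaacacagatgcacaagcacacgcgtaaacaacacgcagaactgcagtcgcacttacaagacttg
The E-box began at base 3 after the start site in MET and at base 35 after it in IRS1, and the reversed M-box core began 47 bases before the start in IRS2 and 79 bases before it in AXL. A match is a description of these letters and was not tested as a binding site.

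Of the 9 genes tested, AXL, FGFR1, EPHA2, IRS1 and MET were lower in Doxy(+), IRS2 was higher, and INSR, IGF1R and DDR1 did not pass. MST1R had too few counts. All changes were smaller than 2-fold. The test was edgeR's quasi-likelihood test over all 13542 genes, and a gene was called at a Benjamini-Hochberg adjusted p under 0.05. The 5 lower genes made 55.6% of the 9 tested, against 9.59% of all tested genes, and the single higher gene made 11.1%, against 9.81% of all tested genes. These 5 lower genes were the only ones of the 10 over 100 CPM in Doxy(-), and the other 5 stayed under 30 CPM in every library. Small changes are easier to call at high counts, and the shares of all genes were not matched for level. None of the 9 passed a log2 fold change of 1 in size as well, the second limit of the study, which 1.5% of all tested genes passed upwards and 0.473% downwards. Without Doxy(+) 1 the test called 672 genes higher and 596 lower, with 1 and 4 of the 9 among them, and without Doxy(+) 2 it called 706 and 656, with 0 and 4. The median log2 fold change was -0.31 over the 9 genes and 0.00072 over all genes. CPM values of the groups did not overlap for 8 of the 10 genes, where 61.2% of all tested genes did not overlap. In bulk RNA, fewer cells with a transcript and less of it per cell cannot be told apart.

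**Figure D1:**
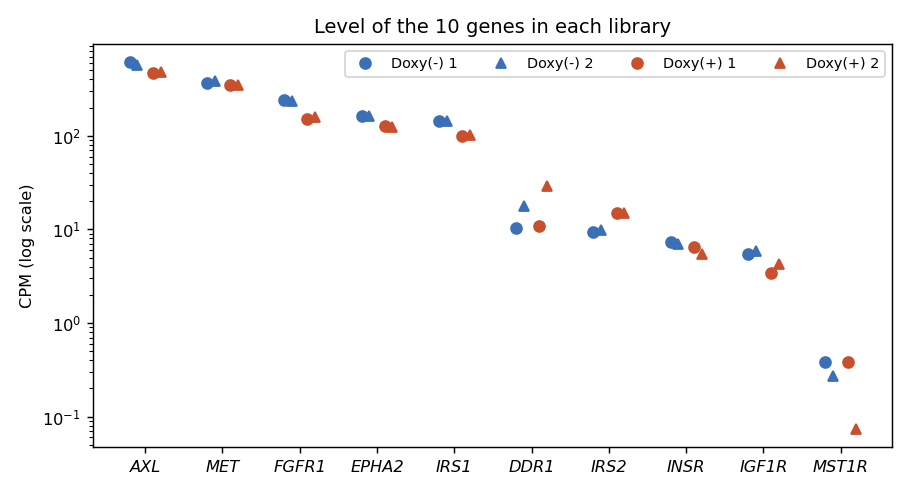
Level of each of the 10 genes in each library in CPM on a log scale, with Doxy(-) in blue and Doxy(+) in orange. The libraries of AXL, MET, FGFR1, EPHA2 and IRS1 sit close together within a group and lower in Doxy(+), IRS2 is higher in Doxy(+), and the DDR1 and MST1R libraries of the groups overlap.

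AXL, a receptor that binds the vitamin K-dependent ligand GAS6, was the most abundant of these genes. It lies on the plus strand of chromosome 19, 41219223 to 41261766 in GENCODE release 44 on hg38. Its level was 610 and 575 CPM in Doxy(-) and 474 and 482 CPM in Doxy(+), so both Doxy(+) libraries were below both Doxy(-) libraries. The means were 593 ± 24.5 and 478 ± 6.21 CPM (SD, n = 2 each), a fall of 0.31 on the log2 scale (SE 0.0374, edgeR adjusted p 0.00326). Nearly all of the count fell on 3 coding transcripts of 4737, 3206 and 2557 bases. AXL-201, the longest, held 75.9% and 70.1% of it in Doxy(-) and 76.4% and 76.7% in Doxy(+), AXL-202 between 17.1% and 21.3%, and AXL-203 between 5.34% and 8.46%. The Doxy(-) libraries differed from each other more than Doxy(-) 1 from either Doxy(+) library, and isoform shares were not tested.

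MET lies on the plus strand of chromosome 7, 116672196 to 116798377. It was measured at 370 and 387 CPM in Doxy(-) against 347 and 346 CPM in Doxy(+). Both Doxy(+) libraries were below both Doxy(-) libraries, which differed more among themselves than the Doxy(+) libraries did (means 379 ± 12.1 and 347 ± 0.867 CPM). The log2 fold change was -0.13 (SE 0.0347, 95% interval -0.21 to -0.04) and the edgeR adjusted p was 0.04996, just inside the threshold. MET passed under 4 of 14 alternative settings. Without Doxy(-) 2, Doxy(+) 1 or Doxy(+) 2 the edgeR adjusted p was 0.0886, 0.22 and 0.23, with log2 fold changes of -0.10, -0.13 and -0.13, and with the replicate number as a block it was 0.0577. The reference transcript MET-202 carried between 95.1% and 98.9% of the gene's count. EGFR, the receptor next below MET in level per length, had 454 and 469 CPM in Doxy(-) and 434 and 430 CPM in Doxy(+), and its log2 fold change of -0.10 (SE 0.0315) did not pass (edgeR adjusted p 0.0844, and 0.0297 without Doxy(-) 1). MST1R, the MET relative that binds macrophage-stimulating protein, had 5 and 4 counts in Doxy(-) and 5 and 1 in Doxy(+). That is 0.388 and 0.272, then 0.388 and 0.0745 CPM, beside 0.204 to 0.233 CPM for 3 counts, so that no difference could be detected at this depth.

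FGFR1, a receptor for fibroblast growth factors, showed the largest fall on the log2 scale among the genes that passed. It stood at 239 and 235 CPM in Doxy(-) against 152 and 158 CPM in Doxy(+). The means of 237 ± 2.51 and 155 ± 4.31 CPM lay far apart beside the spread within either group, and the log2 fold change was -0.61 (SE 0.038, 95% interval -0.71 to -0.52, edgeR adjusted p 0.000334). The gene is on the minus strand of chromosome 8, 38400215 to 38468834, and overlaps the exons of LETM2 on the other strand over 138 bases. Its count was divided among many transcripts in a way that did not repeat between libraries of a group. FGFR1-206, for example, had 377 estimated counts in Doxy(-) 1 and close to 0 in Doxy(-) 2, so only the sum over transcripts is used here.

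EPHA2, a receptor for ephrin-A ligands on neighbouring cells, stood at 164 CPM in both Doxy(-) libraries and at 127 and 123 CPM in Doxy(+). The groups did not overlap, and the log2 fold change was -0.39 (SE 0.0389, 95% interval -0.49 to -0.30, edgeR adjusted p 0.00167). It lies on the minus strand of chromosome 1, 16124337 to 16156069, and EPHA2-201 held between 98% and 98.6% of its count. AXL, FGFR1 and EPHA2 passed under all 14 alternative settings. DDR1, a receptor whose ligand is collagen, was measured at 10.3 and 17.8 CPM in Doxy(-) against 11 and 29 CPM in Doxy(+). The groups overlapped, the log2 fold change was 0.51 with a 95% interval of -0.62 to 1.63 (edgeR adjusted p 0.501), and it was -0.37 without Doxy(+) 2 and -0.29 under limma on log2(TPM + 1). DDR1 (chromosome 6, 30876421 to 30900156) lies in the major histocompatibility region. Its count was divided among 58 transcripts, and 2 of them, of 1479 and 1038 bases, have copies of equal length and equal counts among the identifiers that matched no gene.

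**Figure D2:**
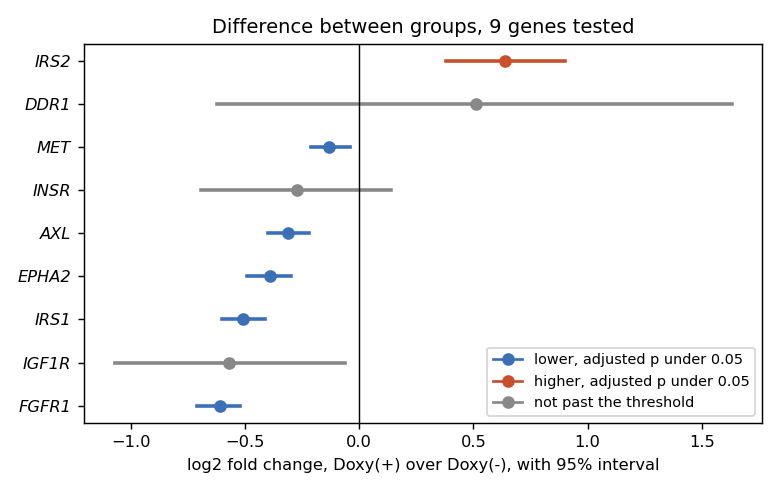
Log2 fold change of Doxy(+) over Doxy(-) for the 9 genes tested, with 95% intervals from the edgeR fit, in blue where lower and in orange where higher at an adjusted p under 0.05, and in grey otherwise. FGFR1 at -0.61 and IRS2 at 0.64 lie at the ends of the called genes, and the interval of DDR1, from -0.62 to 1.63, is the widest.

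The insulin receptor substrates moved in opposite directions. IRS1 (minus strand of chromosome 2, 226731312 to 226799820) was measured at 144 CPM in both Doxy(-) libraries and at 100 and 103 CPM in Doxy(+). The libraries of a group were almost equal, and the log2 fold change was -0.51 (SE 0.0405, 95% interval -0.60 to -0.41, edgeR adjusted p 0.000761). IRS2 (minus strand of chromosome 13, 109752695 to 109786583), which FoxO factors are known to induce, was measured at 9.39 and 9.88 CPM in Doxy(-) against 14.9 and 15.1 CPM in Doxy(+). Both Doxy(+) libraries were above both Doxy(-) libraries, with means of 9.64 ± 0.349 and 15 ± 0.179 CPM, a log2 fold change of 0.64 (SE 0.108, 95% interval 0.38 to 0.90) and an edgeR adjusted p of 0.0105. On TPM, which divides by transcript length and so allows a comparison between genes, the ratio of IRS1 to IRS2 was 12.8 and 12.1 in Doxy(-) against 4.84 and 5.88 in Doxy(+). IRS1-201 held 99.1% to 100% of the IRS1 count, but 85.5% and 85.7% of its TPM in Doxy(-) and 100% and 82% in Doxy(+). These ratios therefore rest in part on few reads of a minor transcript. IRS2 did not pass without Doxy(+) 2 (log2 fold change 0.63, edgeR adjusted p 0.0542), and limma on log2(TPM + 1) gave adjusted p-values of 0.0717 for IRS1 and 0.198 for IRS2.

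INSR itself was scarce. It lies on the minus strand of chromosome 19, 7112255 to 7294414, and stood at 7.39 and 7.02 CPM in Doxy(-) against 6.44 and 5.44 CPM in Doxy(+). Both Doxy(+) values were lower, but the log2 fold change of -0.27 had a 95% interval from -0.69 to 0.14 (edgeR adjusted p 0.319). The 36 bases of exon 11 (chromosome 19, 7150497 to 7150532) separate isoform B, which holds it, from isoform A, which lacks it and binds insulin-like growth factor 2 more strongly. Of the count on transcripts spanning this site, the form with the exon took 41.1% and 16.9% in Doxy(-) and 27.6% and 35% in Doxy(+). The transcript with the exon has 4721 bases and the other 8954, so a share of counts favours the form without it. On TPM, which divides by length, the form with the exon took 57.2% and 28% in Doxy(-) against 42.2% and 50.8% in Doxy(+). These transcripts differ by far more than the 36 bases of the exon, so reads elsewhere also set both kinds of share. Neither is therefore a measure of exon 11 use alone. The groups overlapped on both scales, and each share rested on 14.5 to 32.5 estimated counts with the exon and 37.7 to 71.1 without it.

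IGF1R (plus strand of chromosome 15, 98648539 to 98964530) was measured at 5.49 and 5.86 CPM in Doxy(-) against 3.41 and 4.22 CPM in Doxy(+). The values did not overlap, and the log2 fold change was -0.57 (SE 0.206, 95% interval -1.07 to -0.06), but the edgeR adjusted p of 0.113 did not pass. These values rest on fragments of the gene. The reference transcript of IGF1R, 12235 bases long, was not among the matched identifiers, the longest that matched had 2280 bases, and that transcript, IGF1R-208, retains an intron and held between 45.2% and 70.6% of the count. The level of IGF1R given here is therefore not that of its full-length messenger RNA, and its place in an order of levels is uncertain.

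In the order of the 58 receptor tyrosine kinases by gene TPM in Doxy(-), AXL was first at 216 and 209 TPM, FGFR1 second at 130 and 131 and MET next at 88.5 and 95.1. EGFR followed at 72.8 and 73.7 TPM, EPHA2 at 65.8 and 67.8, EPHB2 at 56.5 and 56, and ERBB2 at 31.8 and 30. Each of these 7 was separated from the next, since the library values of neighbours did not overlap. The place of FGFR1, however, depends on how its count was divided among transcripts, which did not repeat between libraries. On CPM, which does not divide by length, FGFR1 lay below MET, with means of 237 and 379 CPM in Doxy(-). EPHB4 at 23.2 and 25.3 TPM, RYK at 26 and 16.5, FGFR4 at 17.9 and 16.9 and DDR1, in place 11, at 12.6 and 18.8 overlapped with their neighbours. The reference transcript of RYK was not among the matched identifiers, so its place is uncertain. IGF1R came in place 16 at 11.5 and 7.69 TPM and INSR in place 24 at 2.47 and 1.68. By mean TPM the first 7 places had the same order in Doxy(+), where EPHA2 at 51.8 and 51.1 TPM and EPHB2 at 50.9 and 51.8 overlapped. EPHB4 and RYK changed places by mean only, since RYK at 14.3 and 29.3 TPM lay on both sides of EPHB4 at 20.7 and 16.7. The summed TPM of the 58 kinases came to 852 and 841 in Doxy(-) against 722 and 756 in Doxy(+), and the 8 described here held 61.9% and 63.1% of it in Doxy(-) and 57.4% and 57.3% in Doxy(+). These sums and shares did not overlap between the groups and were not tested. The sums include AXL, FGFR1, EPHA2 and MET, whose lower levels are given above. They therefore largely restate those genes and do not show a fall of the other kinases.

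**Figure D3:**
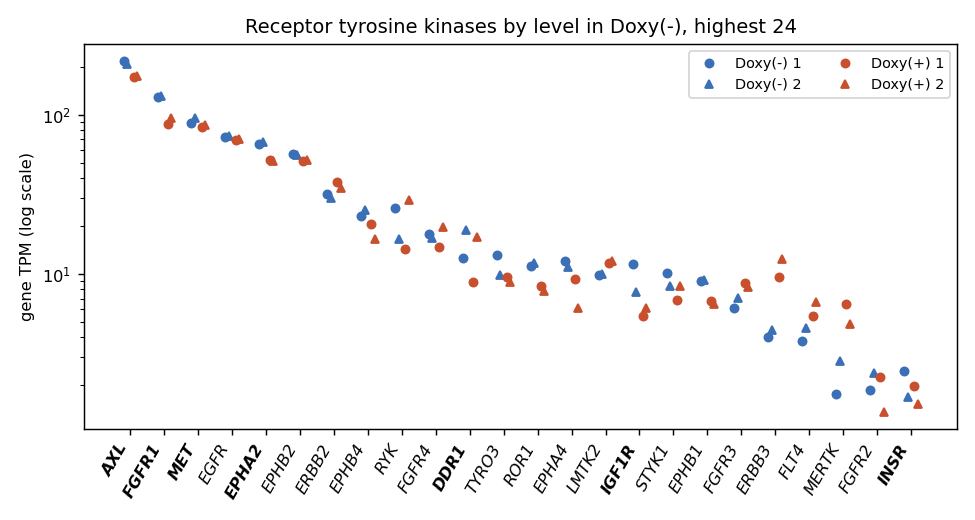
Gene TPM on a log scale of the 24 receptor tyrosine kinases with the highest mean in Doxy(-), in order of that mean, with Doxy(-) libraries in blue and Doxy(+) libraries in orange and the genes described here in bold. AXL, FGFR1 and MET lead in both groups, while ERBB3 and MERTK lie higher in Doxy(+).

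Of the 58 kinases, 8 had no count in any library, 32 were tested and 17 reached 10 CPM in every library. In Doxy(+) 8 were lower (25% of those tested, against 9.59% of all genes) and 4 were higher (12.5%, near the 9.81% of all genes), and 20 did not pass, with a median log2 fold change of -0.04. Without the 7 tested genes described here, 4 were lower and 4 higher of 25. Besides FGFR1, EPHA2, AXL and MET, the lower genes were ROR1, a Wnt-binding receptor that fell from 31.7 to 20.2 CPM (edgeR log2 fold change -0.65, SE 0.0952, adjusted p 0.00632), and the ephrin-B receptors EPHB1 (-0.45), EPHB4 (-0.38) and EPHB2 (-0.18). The 3 ephrin-B receptors are named after their values were seen. The higher genes were LMTK2 (log2 fold change 0.21, edgeR adjusted p 0.0364) and 3 that passed the second limit as well. ERBB3, a partner of ERBB2 that FoxO factors are known to induce, rose by 1.42 on the log2 scale. MERTK, which with AXL and TYRO3 forms the TAM family, had 2.67 and 4.32 CPM in Doxy(-) and 9.31 and 8.77 CPM in Doxy(+) (edgeR log2 fold change 1.36, SE 0.251, adjusted p 0.0145). EPHA5, another ephrin-A receptor, had 2.48 and 2.59 CPM in Doxy(-) and 8.54 and 7.75 CPM in Doxy(+) (edgeR log2 fold change 1.68, SE 0.188, adjusted p 0.00255), without its reference transcript among the matched identifiers.

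Within the TAM family AXL was thus lower, MERTK higher, and TYRO3, at 23.9 and 21.5 CPM in Doxy(-) and 21.6 and 20.7 CPM in Doxy(+), did not pass (log2 fold change -0.10, edgeR adjusted p 0.494). MERTK passed under 9 of 14 alternative settings, and not without Doxy(+) 1, whereas AXL passed under all 14. The log2 fold change of MERTK lay between 1.02 and 1.77 in them. The counts of higher and lower kinases were 2 and 4 without Doxy(+) 1 and 3 and 5 without Doxy(+) 2. LMTK2 lost its call when any of the 4 libraries was left out, with edgeR adjusted p-values between 0.0575 and 0.201. EPHB1 did not pass without Doxy(-) 1, Doxy(+) 1 or Doxy(+) 2, EPHB2 without Doxy(+) 1 or Doxy(+) 2, and EPHB4 without Doxy(+) 1.

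Ligands and other extracellular partners of these receptors were measured in the same libraries. Of 53 listed, 33 were tested, of which 5 were higher (15.2%, against 9.81% of all genes), 2 lower (6.06%, against 9.59%) and 26 did not pass, with a median log2 fold change of -0.06. The MET ligand HGF had 0.0776 CPM in Doxy(-) 1 and 0 elsewhere, and INS was at 0 in all libraries. IGF1 and IGF2 stayed below 0.6 CPM in every library. Transcripts of the AXL ligand GAS6 stood at 21.2 and 23 CPM in Doxy(-) against 16.9 and 25 CPM in Doxy(+), values that overlap (log2 fold change -0.08, edgeR adjusted p 0.809). PROS1, the protein S that binds MERTK and TYRO3, rose from 211 to 308 CPM (edgeR log2 fold change 0.55, SE 0.0401, adjusted p 0.000593). IGF2R, which carries lysosomal enzymes, takes up insulin-like growth factor 2 for degradation and has no kinase domain, was at 714 and 718 CPM in Doxy(-) against 1111 and 1090 CPM in Doxy(+). By edgeR the log2 fold change was 0.62 (SE 0.0271, adjusted p 0.000144).

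Among ligands of FGFR1 and DDR1, FGF2 stood at 67.4 and 74.1 CPM in Doxy(-) against 74.8 and 72.4 CPM in Doxy(+) (log2 fold change 0.06, edgeR adjusted p 0.588), without its reference transcript among the matched identifiers. Collagen COL1A1 was lower (edgeR log2 fold change -0.40, SE 0.101, adjusted p 0.0403), and the basement membrane collagen COL4A1 was at 741 and 726 CPM in Doxy(-) and 732 and 723 CPM in Doxy(+). The membrane proteases ADAM17 and ADAM10, which cut receptors and ligands off the cell surface, moved apart, with ADAM17 higher (edgeR log2 fold change 0.32, SE 0.0451, adjusted p 0.00566) and ADAM10 lower (-0.25, SE 0.0349, edgeR adjusted p 0.00513). ST14 and HPN, proteases that can activate the HGF precursor, were also higher, and are named after their values were seen because they lie under 10 CPM. ST14 had 1.09 CPM in both Doxy(-) libraries and 2.41 and 3.05 CPM in Doxy(+) (edgeR log2 fold change 1.32, SE 0.312, adjusted p 0.033), and HPN, without its reference transcript, had 4.58 and 3.68, then 8.4 and 7.82 CPM (0.98, SE 0.187, edgeR adjusted p 0.0165). The inhibitor of such proteases SPINT2 was at 488 and 453 CPM in Doxy(-) and 416 and 428 CPM in Doxy(+), with a log2 fold change of -0.16 that did not pass (edgeR adjusted p 0.0556). Without Doxy(+) 1 there were 2 higher and 0 lower genes in this list, and without Doxy(+) 2 there were 3 and 2. ST14 lost its call when any library was left out (edgeR adjusted p 0.0872 to 0.183), COL1A1 without Doxy(-) 1, Doxy(+) 1 or Doxy(+) 2 (0.0941 to 0.166), HPN without Doxy(+) 1 or Doxy(+) 2 (0.0873 and 0.0553), and ADAM17 and ADAM10 without Doxy(+) 1 (0.055 and 0.0544).

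Inside the cell, 27 of 31 adaptors and negative regulators were tested, and 3 were higher (11.1%, near the 9.81% of all genes) and 1 lower (3.7%, against 9.59%), with a median log2 fold change of 0.02. TRIB3, a pseudokinase that binds AKT, was at 180 and 160 CPM in Doxy(-) and 233 and 232 CPM in Doxy(+) (edgeR log2 fold change 0.45, SE 0.0586, adjusted p 0.00432). PTPN1, a phosphatase of the insulin receptor, rose from 154 to 188 CPM (0.28, SE 0.0391, edgeR adjusted p 0.00529). GRB10 and GRB14 are related adaptors that bind and inhibit the insulin receptor. GRB10 was higher (edgeR log2 fold change 0.71, SE 0.188, adjusted p 0.0478) and GRB14 lower (-0.60, SE 0.16, edgeR adjusted p 0.0491), and both are near the threshold. Both lost their calls without Doxy(+) 1 or Doxy(+) 2, GRB14 also without Doxy(-) 2, and PTPN1 without Doxy(+) 1 (edgeR adjusted p 0.0533). The shared adaptors GRB2 and SHC1 did not pass, at 148 and 149 then 156 and 157 CPM and at 159 and 159 then 151 and 164 CPM. Without Doxy(+) 1 the list had 1 higher gene, and without Doxy(-) 2 or Doxy(+) 2 it had 0 lower genes.

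Of 26 genes of the PI3K-AKT pathway, 25 were tested, 4 were higher (16%, against 9.81% of all genes), 3 lower (12%, against 9.59%) and 18 did not pass. The median log2 fold change was -0.01. FOXO4, a FoxO factor, rose from 11.6 to 19.9 CPM (edgeR log2 fold change 0.78, SE 0.131, adjusted p 0.0104) and its relative FOXO3 from 117 to 134 CPM (0.19, SE 0.0423, edgeR adjusted p 0.0272). TSC1, which with TSC2 restrains mTORC1, rose from 58.6 to 76.9 CPM (edgeR log2 fold change 0.39, SE 0.0574, adjusted p 0.00629). TBC1D4, an AKT substrate that controls the movement of glucose transporters, fell from 43 to 29.9 CPM (-0.52, SE 0.0775, edgeR adjusted p 0.00677). Smaller log2 fold changes were called for PIK3R2, a regulatory subunit of PI3-kinase, at 0.20 and for the catalytic subunit PIK3CB at -0.18. The reference transcript of PIK3CB was not among the matched identifiers. AKT2 was at 125 and 122 CPM in Doxy(-) and 128 and 121 CPM in Doxy(+), with a log2 fold change of 0.01 and a 95% interval of -0.10 to 0.13. Without Doxy(+) 1 there were 1 higher and 2 lower genes and without Doxy(+) 2 there were 2 and 1. Without Doxy(-) 1 or without Doxy(-) 2 there were 3 and 2. PIK3R2 and PIK3CB lost their calls when any library was left out, and FOXO3 without Doxy(-) 2, Doxy(+) 1 or Doxy(+) 2. TSC1 had an edgeR adjusted p of 0.0503 without Doxy(+) 1.

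The FoxO target list, which holds INSR and IRS2 among its 19 genes, had 14 tested, 5 higher, 2 lower and 7 that did not pass, with a median log2 fold change of 0.11. The 5 higher genes made 35.7% of those tested, against 9.81% of all genes, and the 2 lower genes 14.3%, against 9.59%. Without INSR and IRS2 there were 4 higher and 2 lower of 12, and ERBB3 was known to rise in these data when the list was written. Beside IRS2 and ERBB3, FBXO32, a ubiquitin ligase subunit, was at 39.7 and 38 CPM in Doxy(-) against 63.7 and 64.4 CPM in Doxy(+) (edgeR log2 fold change 0.72, SE 0.0563, adjusted p 0.000711). CITED2 and GADD45A had smaller differences of 0.20 and 0.22 on the log2 scale. TXNIP, which binds thioredoxin and lowers glucose uptake, fell from 69.8 to 50 CPM (edgeR log2 fold change -0.48, SE 0.0537, adjusted p 0.00251), and the pseudokinase TRIB1 fell from 64 to 45.2 CPM (-0.50, SE 0.0534, edgeR adjusted p 0.00213). PCK1 and IGFBP1, FoxO targets of liver, had at most 1 count in any library. Without Doxy(+) 1 the list had 3 higher genes and without Doxy(+) 2 it had 2, with 2 lower genes in each case. CITED2 lost its call without Doxy(+) 1 or Doxy(+) 2, and GADD45A when any of the 4 libraries was left out.

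**Figure D4:**
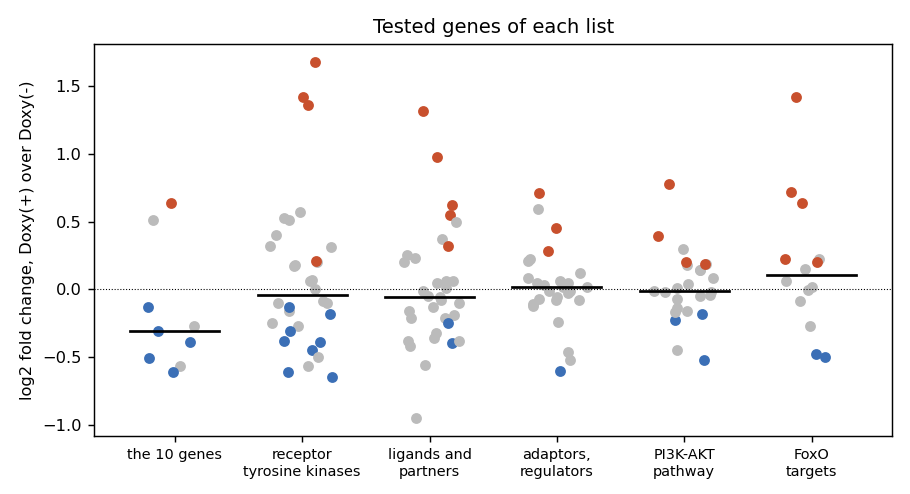
Log2 fold change of Doxy(+) over Doxy(-) for every tested gene of the 10 genes described here and of 5 lists of related genes. Genes are in orange where higher and in blue where lower at an edgeR adjusted p under 0.05, in grey otherwise, with the median as a black line. Of the 10 genes, 8 are also listed among the receptor tyrosine kinases and 2 among the FoxO targets, and those tested are drawn there again. The median of the 9 tested genes is -0.31, and those of the other lists lie between -0.06 and 0.11.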

How the data were processed

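RNA-seq libraries of HK-2 cells with inducible PRCC-TFE3, 2 Doxy(-) and 2 Doxy(+), were analysed. Per the labels, the library kit was a stranded mRNA kit, and the submitters' processing notes name Trim Galore 0.6.6, cutadapt 2.5 and STAR 2.7.9a. The study's methods describe STAR and RSEM, but the deposited files have the columns that kallisto writes. The version of the quantifier, its Ensembl release and its use of strand are not given in the sources used here. The deposited estimated counts, made by the authors for 180253 Ensembl transcripts, are not normalized and are fractional, because a read that fits several transcripts was divided between them. The deposited TPM values, scaled by the authors to 1000000 per library, divide by effective length and were summed per gene to compare levels between genes.

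Transcripts were matched to GENCODE release 44 on hg38. Of the identifiers 150691 (83.6%) matched, and the 29562 others, with 9.66% to 9.89% of each library's count, stayed out of library sizes and tests. Counts were summed per gene symbol and rounded, and edgeR 4.0.16 (R 4.3.3) was used for the test (glmQLFit and glmQLFTest, TMM, filterByExpr, group as the only term). SEs follow from the F statistic, p-values were adjusted by Benjamini and Hochberg, and the biological coefficient of variation was 6.47%. CPM values are on the TMM scale. Library totals were 14513497 and 16618401 in Doxy(-) and 14042545 and 14664879 in Doxy(+). A count of 3, the limit that a count of 0 allows, is 0.204 to 0.233 CPM and covers counting error only, as reads carried no molecular identifiers. P-values measure the spread between these libraries, which may be technical. The libraries of a group were distinct, with a chi-square per degree of freedom of 4.21 in Doxy(-) and 2.97 in Doxy(+). The scripts were tested on simulated data.

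The 10 genes and the lists were chosen with earlier results of these data known. Named are the 10 genes, ERBB3, EGFR and TFE3, the 10 highest receptor tyrosine kinases by TPM, every such kinase past both limits, and of each list up to 4 higher and 4 lower genes with the smallest p at a mean of at least 10 CPM. Partners named outside this rule, such as GAS6, TYRO3, SPINT2 and AKT2, are given for their role and were chosen after their values were seen. For 1 list gene that meets this rule no result is given here. The alternatives were DESeq2 1.42.0, RLE factors, other filters, limma 3.58.1 on log2(TPM + 1) and log2(TPM + 0.1), length-scaled counts, unmatched identifiers tested beside the genes, other thresholds, a replicate block and leaving out each library.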

Additional observations from a re-analysis of the deposited data

How the results depend on the processing

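Counts of genes are given as higher and lower. Under limma on log2(TPM + 1) the calls were 0 and 3 of the genes described, with 1 and 3 receptor kinases, 0 lower ligands and partners, 0 lower adaptors, 1 and 0 PI3K-AKT genes, 2 higher FoxO targets and 600 and 311 of all genes. Under limma on log2(TPM + 0.1) the list counts were equal to these, with 596 and 303 of all genes. Length-scaled counts called 2 and 4 receptor kinases, 0 lower ligands, 0 lower adaptors, 1 higher PI3K-AKT gene, 3 higher FoxO targets and 672 and 578 of all genes. When identifiers without a gene were added to the test, it called 0 higher and 4 lower of the genes described, 2 and 5 receptor kinases, 3 and 1 ligands, 0 lower adaptors, 1 higher PI3K-AKT gene, 2 higher FoxO targets and 644 and 617 of all genes. At an adjusted p under 0.01 there were 0 and 4 of the genes described, 2 and 5 receptor kinases, 3 and 1 ligands, 0 lower adaptors, 1 and 1 PI3K-AKT genes, 2 higher FoxO targets and 626 and 559 of all genes. Past both limits there were 0 and 0 of the genes described, 0 lower receptor kinases, 1 and 0 ligands, 0 and 0 adaptors, 0 and 0 PI3K-AKT genes, 1 and 0 FoxO targets and 203 and 64 of all genes. DESeq2 called 0 lower adaptors, and the fit without a low-count filter called 2.

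Leaving out each library in turn gave 0 to 1 higher and 4 to 5 lower of the genes described, 2 to 3 and 4 to 8 receptor kinases, 2 to 4 and 0 to 3 ligands, 1 to 3 and 0 to 1 adaptors, 1 to 3 and 1 to 2 PI3K-AKT genes, 2 to 4 and 2 to 2 FoxO targets, and 672 to 1250 and 596 to 1327 of all genes. The log2 fold change of DDR1 was -0.29 and -0.32 under limma with the pseudocounts 1 and 0.1, -0.31 with length-scaled counts and from -0.37 to 1.04 when a library was left out. AXL, FGFR1 and EPHA2 passed in every alternative fit, MET in 4 of 14, IRS1 in 12 and IRS2 in 10. Among the other named genes, ERBB3, IGF2R, PROS1, TRIB3, FBXO32, TRIB1 and TXNIP passed in every alternative fit. The causes were not tested. No scaling moved the median of all genes by over 0.03.

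Libraries with the same number did not deviate together (correlation -0.232 over 9609 genes) and the labels do not say what the number marks, so the libraries were not treated as paired. A replicate block called 1 higher and 4 lower of the genes described, 1282 higher and 1261 lower of all genes, with an edgeR adjusted p of 0.0577 for MET. A crossed block, chosen after seeing the data, called 1 and 4 of the genes described and 1207 and 1165 of all genes. MST1R had too few counts for a test, and IGF1R was measured without its reference transcript.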
